A study of Mus musculus with 47 samples.

Results

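Medullary thymic epithelial cells (mTECs) include small populations, called mimetic cells, whose transcripts resemble those of cell types outside the thymus. The genes described here are 8 genes of the microfold type of mimetic cell: Spib, Gp2, Ccl20, Ccl9, Ccl6, Tnfaip2, Anxa5 and Marcksl1. They were taken by name and found through their Ensembl identifiers in both count tables, which held 53402 genes for the adult libraries and 55471 for the neonatal libraries. All 8 passed the filter on low counts and were among the 19310 adult and 20196 neonatal genes that were tested.

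Microfold cells sit in the epithelium over lymphoid follicles of the gut and carry particles from the lumen to immune cells beneath. Their differentiation depends on RANK signalling, which acts through TRAF6 and the NF-kB factors, and on the transcription factors Spi-B and Sox8. In the thymus, RANK signalling also drives the maturation of mTECs, so the upstream genes of the microfold program are used by many mTECs that are not microfold mimetic cells. Of the 8 genes, Spib encodes the ETS-family factor Spi-B. Gp2 encodes a GPI-anchored receptor for type 1 fimbriae on the apical surface of microfold cells. Ccl20, Ccl9 and Ccl6 encode chemokines, of which CCL20 is the ligand of CCR6 and CCL9 acts through CCR1. Tnfaip2 encodes M-Sec, a protein that promotes membrane protrusions, Anxa5 encodes a calcium-dependent phospholipid-binding protein and Marcksl1 a membrane-associated actin regulator.

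RNA was sequenced in bulk by the RamDA method from CD45-EpCAM+Ly51- thymic cells of C57BL/6 mice, sorted into mTEChi and mTEClo by high or low MHC class II. In the adult table, mTEChi came from 7 WT and 4 AireKO libraries and mTEClo from 8 WT and 4 AireKO libraries; WT mice were 4 or 5 weeks old and of both sexes, and AireKO mice were 5 or 6 weeks old and all male. In the neonatal table, mTEChi came from 5 Ctrl, 3 EEDcKO, 3 AireKO and 3 AireEEDdKO libraries, and mTEClo from 3 Ctrl, 4 EEDcKO and 3 AireEEDdKO libraries, all from mice 1 to 6 days old. AireKO mice lack the transcriptional regulator Aire in all cells. EEDcKO mice lack EED, a core subunit of the H3K27 methyltransferase complex PRC2, where Foxn1-Cre is active, that is in the thymic epithelium, and AireEEDdKO mice carry both defects. Neonatal mTEClo of AireKO mice were not analysed here. Some neonatal libraries pooled male and female animals. Neonatal AireKO and AireEEDdKO mice were 4 or 6 days old, whereas all mTEClo Ctrl mice were 3 days old or younger.

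Library totals ranged from 1602125 to 3938588 counts in adults and from 1578579 to 4817418 counts in neonates. Levels are given as CPM, in which each library's counts are brought to one total by TMM scaling within a table, and levels of different genes are compared only as CPM per kb of merged exon. In adults, all 4 libraries of mTEChi AireKO, with replicates 3 and 4 of mTEClo AireKO, held 0 counts over 37 mitochondrial genes, whereas every other adult library held 6178 to 10339. Genotype and this kind of library therefore cannot be told apart in adult mTEChi. For the targeted genes, Aire had a log2 fold change of -4.81 in adult mTEChi AireKO, and Eed had one of -1.001 in neonatal mTEChi EEDcKO (adjusted p = 0.0014). Epcam, Cdh1, Krt5, Krt8 and Krt14 were detected in every group, with a summed level of 1020 to 2790 CPM per library. In bulk samples, fewer cells of a type and less RNA per cell cannot be told apart.

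The sequences upstream of 5 of the genes are shown because Spi-B is itself a member and because Gp2 and the 3 chemokine genes fell together in adult AireKO mTEClo, as described below. Each is the 250 bases before the RefSeq start in GRCm38.p6, written 5′ to 3′ on the strand of the gene, with capitals marking the kappa B consensus of NF-kB or the PU box (GAGGAA) bound by Spi-B and related ETS factors, on either strand.
Spib, chr7:44532072-44532321, minus strand: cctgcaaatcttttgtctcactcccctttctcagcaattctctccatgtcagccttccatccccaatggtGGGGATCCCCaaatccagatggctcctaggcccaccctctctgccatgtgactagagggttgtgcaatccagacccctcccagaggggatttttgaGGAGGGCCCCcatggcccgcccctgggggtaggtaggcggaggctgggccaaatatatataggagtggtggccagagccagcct
Gp2, chr7:119459273-119459522, minus strand: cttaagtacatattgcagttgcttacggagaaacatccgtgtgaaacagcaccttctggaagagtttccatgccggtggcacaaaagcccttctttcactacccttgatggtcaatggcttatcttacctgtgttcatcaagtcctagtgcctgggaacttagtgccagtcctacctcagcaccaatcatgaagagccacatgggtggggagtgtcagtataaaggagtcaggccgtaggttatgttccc
Ccl20, chr1:83116516-83116765, plus strand: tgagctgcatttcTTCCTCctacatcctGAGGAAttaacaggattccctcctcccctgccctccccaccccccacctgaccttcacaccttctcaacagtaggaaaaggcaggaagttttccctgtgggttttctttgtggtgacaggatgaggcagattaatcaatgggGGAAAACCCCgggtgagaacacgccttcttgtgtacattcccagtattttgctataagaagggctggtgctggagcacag
Ccl9, chr11:83578637-83578886, minus strand: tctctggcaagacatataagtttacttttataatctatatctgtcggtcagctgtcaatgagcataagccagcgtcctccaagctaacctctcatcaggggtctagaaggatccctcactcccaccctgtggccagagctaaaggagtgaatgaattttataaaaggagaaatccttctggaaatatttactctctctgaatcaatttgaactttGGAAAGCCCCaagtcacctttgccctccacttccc
Ccl6, chr11:83593088-83593337, minus strand: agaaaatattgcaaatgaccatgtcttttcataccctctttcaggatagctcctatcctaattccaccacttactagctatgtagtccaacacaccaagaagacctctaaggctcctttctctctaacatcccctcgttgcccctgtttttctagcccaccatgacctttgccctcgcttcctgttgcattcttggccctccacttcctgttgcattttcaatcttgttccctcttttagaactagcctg

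The kappa B consensus matched upstream of 4 of the 8 genes, Spib, Ccl20, Ccl9 and Tnfaip2, and in 7.25% of 32851 RefSeq windows of the same length. The match of Ccl20 lay 71 to 80 bases and that of Ccl9 26 to 35 bases before the start. The PU box matched upstream of Ccl20 and Marcksl1, 2 of the 8 genes, and in 23.3% of all windows, with 2 matches in Ccl20 at 232 to 237 and 217 to 222 bases before the start. Neither motif was found in the windows of Gp2, Ccl6 and Anxa5. These are letter matches and no binding was measured. Ccl9 and Ccl6 are neighbours, 9245 bases apart on the minus strand of chromosome 11, and their longest shared upstream stretch was the 13 bases gccctccacttcc, the longest shared by any pair of the 8 windows.

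The 8 genes differed widely in level. In adult mTEChi WT, Anxa5 was at 160.9 ± 21.1 CPM per kb (SD, n = 7), Marcksl1 at 92.4 ± 7.92 and Spib at 92.2 ± 9.40, values that exceeded those of Ccl20 (48.7 ± 10.9) and Gp2 (48.5 ± 14.7). Tnfaip2 was at 21.8 ± 2.63, Ccl9 at 14.0 ± 3.04 and Ccl6 at 8.90 ± 2.86 CPM per kb. Across the 4 adult groups, the mean level per kb of Spib stayed above that of 99.2% of tested genes or more, and that of Anxa5 above 99.7% or more. By contrast, the mean level of Ccl9 ranged from above 21.8% of genes in mTEClo AireKO to above 78.4% in mTEChi WT. In neonates the rank of Ccl6 went from above 8.71% of genes in mTEClo EEDcKO to above 60.6% in mTEChi Ctrl. Near the top of the range a rank moves little, and the group means of Spib went from 154.0 to 350.1 CPM and those of Marcksl1 from 87.4 to 188.8 CPM across the neonatal groups.

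The spread between replicates also differed between the genes. The biological coefficient of variation of Ccl6 was 35.6% in adults, larger than that of 96.3% of genes, and that of Ccl9 was 55% in neonates, larger than that of 97.2% of genes. Gp2 and Ccl20 reached 26.7% and 24.4% in adults and 43.7% and 48.2% in neonates. Anxa5, at 11.6% in adults and 15.5% in neonates, lay below the medians of all genes, which were 14.1% and 19.0%. A given fold change was thus measured less precisely for the chemokine genes and Gp2 than for Anxa5, Marcksl1 and Spib.

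**Figure D1:**
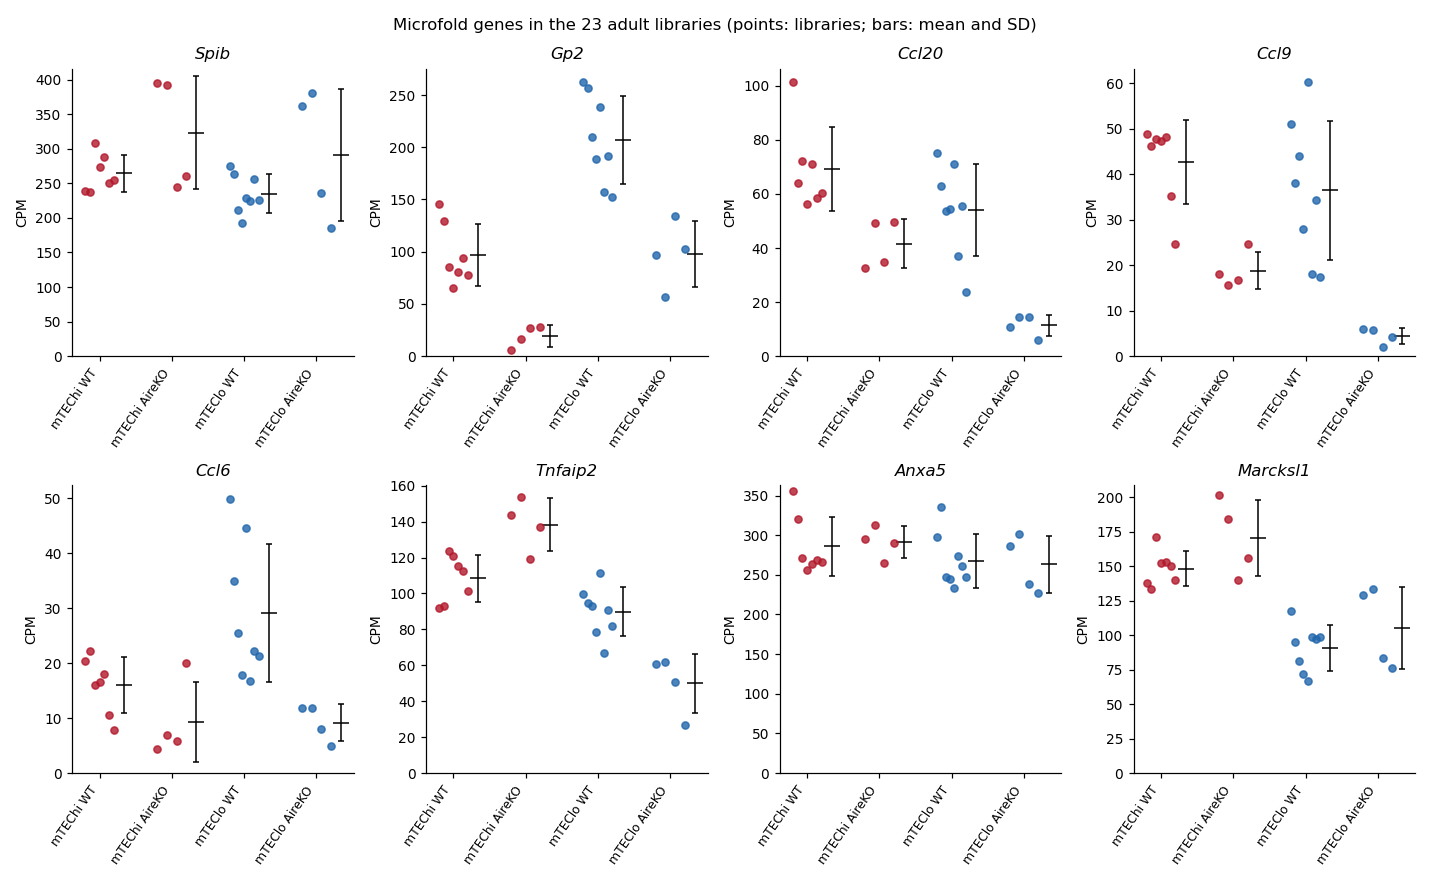
TMM-scaled CPM (y axis, linear, from 0) of each of the 8 genes in the 23 adult libraries, by group (x axis); points are libraries (red, mTEChi; blue, mTEClo) and bars the mean and SD. Gp2 lay at 5.70 to 27.6 CPM in mTEChi AireKO and at 65.5 to 145.6 in mTEChi WT, and Ccl9 lay at 2.08 to 5.95 CPM in mTEClo AireKO and at 17.4 to 60.3 in mTEClo WT.

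The comparison of AireKO with WT in adult mTEClo asked whether these genes change without Aire in the fraction where most Aire-expressing cells are absent. Gp2, Ccl20, Ccl9 and Ccl6 fell, Tnfaip2 passed the test but was under 2-fold, and Spib, Anxa5 and Marcksl1 did not pass the test. Of the 8 genes, 4 were called lower (adjusted p under 0.05 and at least 2-fold), where 3.88% of all tested genes were called lower, 4.42% higher and 8.30% in either direction. The median log2 fold change of the 8 genes was -0.97, beside 0.00 over all genes.

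Ccl9 showed the largest change of the 8 genes. It lay at 5.95, 5.64, 2.08 and 4.13 CPM in the AireKO libraries, and at 17.4 to 60.3 CPM with a median of 36.2 in the 8 WT libraries. The groups did not overlap, as for 11.7% of all genes in this comparison, and Ccl9 fell by 3.13 on the log2 scale (SE 0.37, adjusted p = 4.1e-07), an 8.74-fold difference. Ccl20 was at 10.8, 14.4, 14.3 and 5.83 CPM in AireKO, below the lowest of the WT libraries, which ranged from 23.7 to 75.2 CPM with a median of 54.97. Ccl20 fell by 2.30 on the log2 scale (SE 0.28, adjusted p = 7.4e-07). Ccl6 was at 11.9, 11.9, 8.04 and 4.86 CPM in AireKO and at 16.8 to 50.0 CPM in WT, with a median of 23.8. Its groups did not overlap, and it fell by 1.74 on the log2 scale (SE 0.37, adjusted p = 0.00095). All 3 chemokine genes were thus lower in each AireKO library than in any WT library. Among the WT libraries, Ccl9 was at 28.1 to 60.3 CPM at 4 weeks of age and at 18.0, 34.25 and 17.4 CPM at 5 weeks. In the same order, Ccl20 was at 53.5 to 75.2 and 23.7 to 55.4 CPM, and Ccl6 at 17.8 to 50.0 and 16.8 to 22.2 CPM. AireKO mice were 5 or 6 weeks old, and the part of age in the adult comparisons was not tested.

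Gp2, the surface receptor, was at 96.35, 57.0, 133.7 and 103.0 CPM in mTEClo AireKO and at 152.3 to 262.5 CPM in WT, with a median of 200.5. It fell by 1.05 on the log2 scale (SE 0.23, adjusted p = 0.0013), close to the 2-fold limit of the call. Without AireKO replicate 2 it was 0.89 lower, and in male libraries alone 0.92 lower, short of 2-fold in both. Tnfaip2 was at 60.6, 62.0, 50.9 and 26.5 CPM in AireKO and at 67.1 to 111.5 CPM in WT, groups that did not overlap. Its log2 fold change of -0.89 (SE 0.16, adjusted p = 0.00019) did not reach 2-fold, and it was called at -1.01 without AireKO replicate 1 and at -1.015 without replicate 2. Spib, the regulator, had a log2 fold change of 0.30 (SE 0.15, adjusted p = 0.14). The intervals of Anxa5 (-0.23 to 0.18) and Marcksl1 (-0.09 to 0.50) held no 2-fold change.

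The 4 mTEClo AireKO libraries were of both kinds. Replicates 1 and 2, from mice 5 weeks old, held mitochondrial counts like the WT libraries, and with these alone Gp2, Ccl20, Ccl9 and Ccl6 were again the 4 genes called lower. With a term for the kind of library, Ccl6 had a log2 fold change of -1.25 (adjusted p = 0.061) and lost its call. In male libraries alone 2 genes were called, Ccl20 and Ccl9. Because CCL9 and CCL6 are also made by myeloid cells, macrophage and monocyte markers were measured in the same libraries. The 7 markers summed to 88.9 to 125 CPM in AireKO and 41.3 to 79.5 CPM in WT, and none was at 0 in every library of a group. Lyz2 alone set the direction of that sum, with a mean of 88.9 CPM in AireKO and 34.2 in WT. Of the 6 markers tested, Lyz2 was called higher and Itgam lower, and the median log2 fold change was -0.48, the same direction as Ccl9 and Ccl6. Adgre1 was at 0 to 1.62 CPM in AireKO and 0 to 3.30 in WT. Their part in the chemokine values was not tested. The 5 enterocyte markers, of another mimetic type, summed to 105 to 174 CPM in AireKO and to 181 to 387 in WT. The 6 tuft markers, of a further mimetic type, summed to 1260 to 1880 CPM in AireKO and to 1490 to 1970 in WT. Of the tuft markers, 1 was called higher and none lower.

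In adult mTEChi the same comparison gave a different picture, with Gp2 and Ccl9 lower. Of the 8 genes, 2 were called lower, where 17.8% of all tested genes were called lower, 5.63% higher and 23.4% in either direction. The median log2 fold change of the 8 genes was -0.35, beside -0.01 over all genes. Gp2 was at 5.70, 16.0, 27.4 and 27.6 CPM in AireKO and at 65.5 to 145.6 CPM in WT, with a median of 84.97. The groups lay well apart, as the CPM of 38.0% of all genes did without overlap in this comparison. Gp2 fell by 2.29 on the log2 scale (SE 0.29, adjusted p = 1.7e-07), a 4.88-fold difference. Ccl9 was at 18.0, 15.6, 16.8 and 24.6 CPM in AireKO and at 24.6 to 48.9 CPM in WT, with a median of 47.4, so that the groups overlapped at replicate 4 of AireKO. It fell by 1.18 (SE 0.28, adjusted p = 0.00085), but by 0.33 (adjusted p = 0.81) with a term for the kind of library.

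Markers of blood cells went both ways in adult mTEChi, and some of them were lower, as Ccl9 was. Of the 6 macrophage and monocyte markers tested, 3 were called lower in AireKO, with a median log2 fold change of -1.40, although the 7 markers summed to 317 to 363 CPM in AireKO and 283 to 348 in WT. Adgre1 had group means of 0.902 CPM in AireKO and 37.2 in WT, Cd14 of 6.93 and 27.0, and Lyz2, which was higher, of 289.7 and 191.7. Of the 4 dendritic cell markers tested 2 were called lower (median -1.47), while the 6 of the list summed to 207 to 254 CPM against 126 to 160, with a mean of 209.9 and 112.2 CPM for Zbtb46. Of the 6 thymocyte markers tested 5 were called lower (median -1.57, sums of 43.5 to 57.3 CPM against 83.9 to 117). Itgax was at 0.294 CPM in AireKO and 5.09 in WT. Of the 4 B cell markers tested 1 was called higher and 1 lower (median 0.54), and the 5 of the list summed to 107 to 150 CPM against 60.0 to 89.4. Whether these marker transcripts came from blood cells or from the mTECs themselves was not tested. Nor was the part of blood cells in the values of Ccl9 and Ccl6.

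Ccl20 was at 32.5, 49.1, 34.9 and 49.7 CPM in mTEChi AireKO, below every WT library (56.2 to 101.6 CPM, median 64.2). Its log2 fold change of -0.72 (SE 0.23, adjusted p = 0.0093) was under 2-fold. Ccl6 was at 4.39, 6.96, 5.82 and 20.1 CPM in AireKO and at 7.85 to 22.2 CPM in WT, where AireKO replicate 4 lay among the WT libraries. Its log2 fold change of -0.75 (SE 0.38, adjusted p = 0.097) became -1.43 (adjusted p = 0.0047) without that replicate and 0.15 (adjusted p = 0.91) with the term for the kind of library. The same term took Spib from 0.29 (adjusted p = 0.11) to 1.11 (adjusted p = 0.0003) and Tnfaip2 from 0.34 (adjusted p = 0.0498) to 1.02 (adjusted p = 0.004). Kind of library and genotype coincide in adult mTEChi, so the term rests on the mTEClo AireKO libraries. Among those, kind coincides with the age of the mice, so the term cannot tell kind from age.

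Spib itself split the AireKO libraries. In mTEChi it was at 396 and 392 CPM in replicates 1 and 2, from mice 5 weeks old, and at 245 and 260 CPM in replicates 3 and 4, from mice 6 weeks old. In mTEClo the same numbers gave 362 and 381 CPM against 235 and 186 CPM. The WT libraries held 237.0 to 309 CPM in mTEChi and 192 to 275 CPM in mTEClo, so the older AireKO libraries lay within or below the WT range and the younger ones above it. Marcksl1 followed Spib, with 202 and 184 CPM against 139.7 and 156 CPM in mTEChi AireKO and 129 and 133 CPM against 83.4 and 76.5 CPM in mTEClo AireKO. In mTEClo, age and kind of library coincided in these 4 libraries. In mTEChi AireKO, where all 4 libraries were of one kind, the split by age was present as well.

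The effect of Aire loss differed between the fractions for 4 of the 8 genes, by the interaction term of the same fit, where 13.7% of all genes were called, 2.7% higher and 11% lower. The difference in log2 fold change, mTEChi minus mTEClo, was -1.23 for Gp2 (SE 0.36, adjusted p = 0.012), 1.58 for Ccl20 (SE 0.36, adjusted p = 0.0018), 1.95 for Ccl9 (SE 0.48, adjusted p = 0.0033) and 1.23 for Tnfaip2 (SE 0.22, adjusted p = 0.00011). The difference between AireKO and WT was thus larger in mTEChi for Gp2 and larger in mTEClo for Ccl20 and Ccl9. Same-numbered AireKO samples of the fractions deviated together. With the replicate number as a block Gp2 lost its call (-1.29, adjusted p = 0.068). That fit also left out the WT libraries whose number was not found in every group, and the part of each in the lost call was not tested. The call of Gp2 was also lost without mTEChi AireKO replicate 1 (-0.94, adjusted p = 0.04), and that of Tnfaip2 without mTEClo AireKO replicate 4 (0.98, adjusted p = 0.00014). The fractions differed in kind of library as well, and the part of this in the interaction was not tested beyond the term above, under which the same 4 genes were called. 

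**Figure D2:**
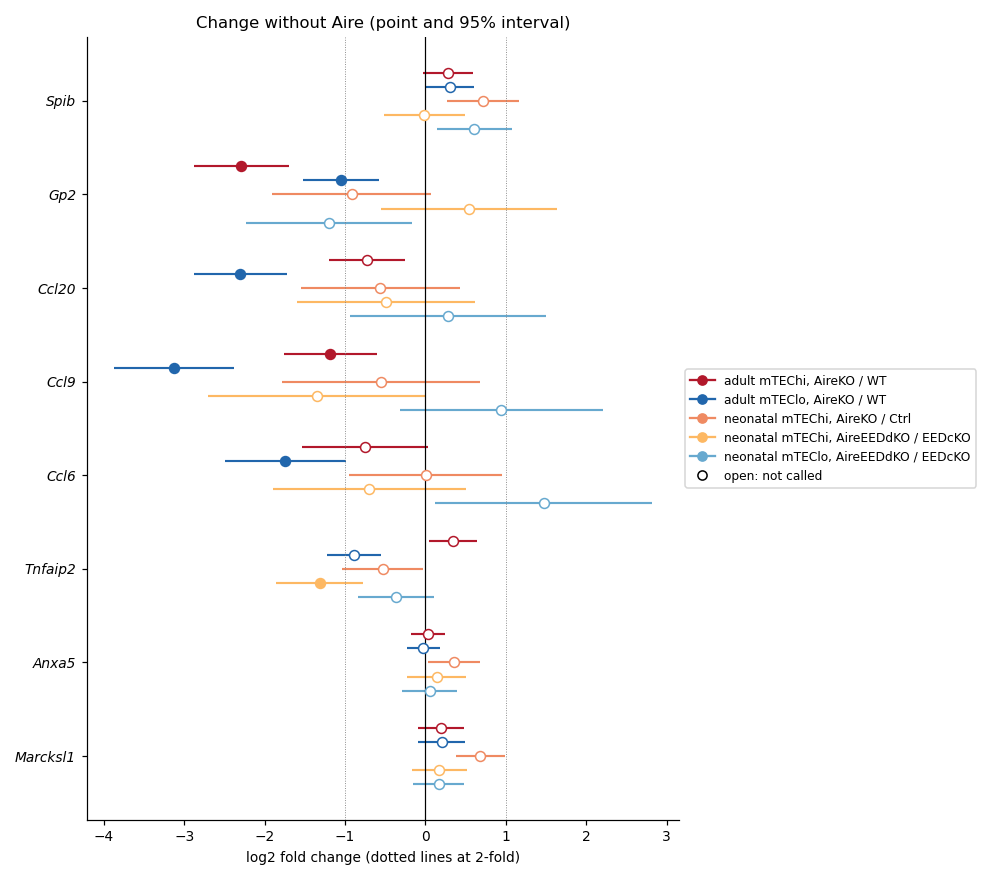
Log2 fold change (x axis) of each gene (y axis) in the 5 comparisons of mice without and with Aire, as a point with its 95% interval; filled points passed the call and dotted lines mark 2-fold. In adult mTEClo the points of Gp2, Ccl20, Ccl9 and Ccl6 are filled and lie between -3.13 and -1.05, whereas Tnfaip2 in AireEEDdKO mTEChi is the one filled neonatal point.

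Between the fractions of adult WT mice, Gp2 was the one gene called. Gp2 fell from 207.1 ± 42.3 CPM in mTEClo (SD, n = 8) to 96.9 ± 29.5 CPM in mTEChi (SD, n = 7), where 12.4% of all genes were called lower in mTEChi, 23.7% higher and 36.1% in either direction. This was a log2 fold change of -1.11 (SE 0.19, adjusted p = 7.6e-06), and no library of one fraction reached the other, as for 44.4% of all genes. Marcksl1 was at 133.8 to 171 CPM in mTEChi and at 66.9 to 117 CPM in mTEClo, also without overlap, with a log2 fold change of 0.72 (SE 0.12, adjusted p = 4.4e-06) under 2-fold. The log2 fold change of Ccl6 was -0.87 (SE 0.27, adjusted p = 0.0061) and that of Tnfaip2 0.28 (SE 0.12, adjusted p = 0.043). Ccl20 and Ccl9 overlapped between the fractions, with adjusted p = 0.082 and 0.33.

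In adult AireKO mice 4 of the 8 genes were called between the fractions, 3 higher and 1 lower in mTEChi, where 18.5% of all genes were called higher, 16.7% lower and 35.2% in either direction. Ccl20 was 3.82-fold higher in mTEChi (log2 1.93, SE 0.31, adjusted p = 4.8e-06), Ccl9 4.52-fold (log2 2.18, SE 0.43, adjusted p = 6.9e-05) and Tnfaip2 2.86-fold (log2 1.52, SE 0.18, adjusted p = 2.7e-08). Gp2 fell by 2.35 on the log2 scale (SE 0.31, adjusted p = 1.6e-07). None of the 4 overlapped between the fractions in AireKO, as for 47.2% of all genes. When only the libraries without mitochondrial counts were kept, Marcksl1 (log2 1.04, adjusted p = 0.00013) joined them.

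**Figure D3:**
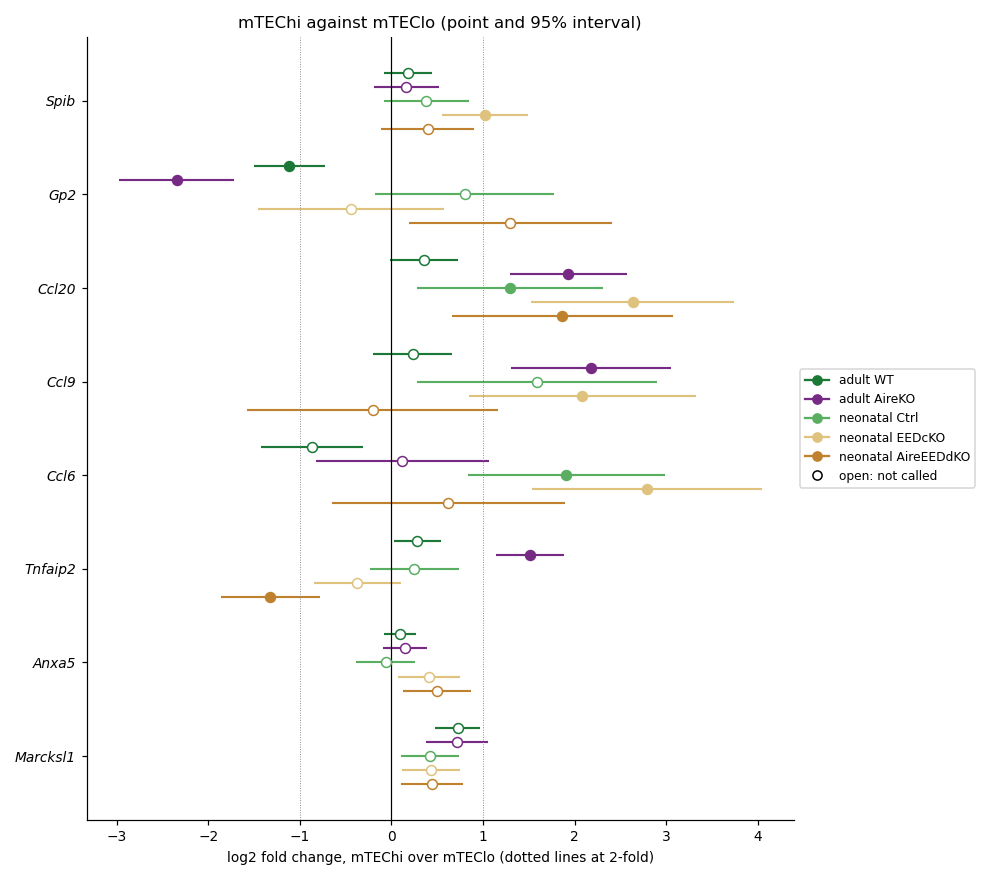
Log2 fold change of mTEChi over mTEClo (x axis) of each gene (y axis) within 5 genotypes and ages, as a point with its 95% interval; filled points passed the call and dotted lines mark 2-fold. Gp2 is called lower in mTEChi in both adult genotypes and in none of the 3 neonatal ones, and Ccl20 is called higher in mTEChi in the other 4 but not in adult WT.

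In neonatal Ctrl mice Ccl6 and Ccl20 were called higher in mTEChi, and Ccl9 was not. Of the 8 genes, 2 were called higher, where 13.8% of all genes were, beside 6.92% lower and 20.7% in either direction. Ccl6 was at 8.44, 10.4, 13.5, 11.9 and 19.2 CPM in mTEChi and at 3.38, 3.51 and 3.38 CPM in mTEClo. The groups did not overlap, as for 45.3% of all genes, and Ccl6 rose by 1.91 on the log2 scale (SE 0.52, adjusted p = 0.0068). Ccl20 was at 40.5, 39.9, 68.2, 60.98 and 61.8 CPM in mTEChi and at 32.1, 18.2 and 15.8 CPM in mTEClo, again without overlap, a difference of 1.29 (SE 0.49, adjusted p = 0.042). That call was lost without any of 5 of the 8 libraries, which were mTEClo Ctrl replicates 2 and 3 and mTEChi Ctrl replicates 3, 4 and 5. Ccl9 was at 25.3, 28.9, 49.0, 39.3 and 56.0 CPM in mTEChi and at 19.6, 9.47 and 10.7 CPM in mTEClo, a difference of 1.59 (SE 0.63, adjusted p = 0.0521).

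Gp2, which was lower in mTEChi of adults, was not lower in mTEChi of neonatal Ctrl mice. It was at 62.4, 76.2, 54.7, 74.2 and 87.1 CPM in neonatal mTEChi and at 36.8, 42.4 and 43.3 CPM in mTEClo. The groups did not overlap, with a log2 fold change of 0.80 (SE 0.47, adjusted p = 0.18). In adult WT its group means were 96.9 CPM in mTEChi and 207.1 CPM in mTEClo. The adult and neonatal tables were scaled apart, so the difference between the ages was not tested.

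The neonatal mTEClo Ctrl libraries stood apart in markers of cortical epithelium. The 5 cortical markers summed to 1360 to 2160 CPM in these libraries, to 202 to 711 CPM in mTEClo EEDcKO and to 211 to 614 CPM in the other 5 neonatal groups. The 3 comparisons that use mTEClo Ctrl, which are EEDcKO against Ctrl, the Ctrl fractions and the EED by fraction interaction, share this difference, and its part in them was not tested.

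In neonatal EEDcKO mice 4 of the 8 genes rose in mTEChi against mTEClo, where 14.2% of all genes were called higher, 7.67% lower and 21.8% in either direction. Ccl6 was at 6.19, 3.06 and 11.9 CPM in mTEChi and at 0.67, 1.80, 1.49 and 0 CPM in mTEClo (log2 2.79, SE 0.61, adjusted p = 0.001). With 0 to 7 counts of Ccl6 in the mTEClo libraries, the size of that fold change depends on the prior count. Ccl20 was at 42.7, 22.1 and 63.8 CPM in mTEChi and at 1.35, 11.5, 3.62 and 11.1 CPM in mTEClo (log2 2.63, SE 0.54, adjusted p = 0.00059). Both genes were lower in every mTEClo library than in any mTEChi library, as 36.5% of all genes were apart between the groups.

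Ccl9 in EEDcKO was at 27.2, 35.4 and 98.4 CPM in mTEChi and at 4.04, 8.62, 31.1 and 5.05 CPM in mTEClo, where mTEClo replicate 3 lay among the mTEChi libraries (log2 2.08, SE 0.60, adjusted p = 0.0086). Without mTEChi EEDcKO replicate 3 the difference was 1.30 (adjusted p = 0.14). Spib was at 313, 295 and 333 CPM in mTEChi and at 79.5, 118, 235 and 184 CPM in mTEClo (log2 1.02, SE 0.23, adjusted p = 0.0013). Its difference fell to 0.80, 0.91 or 0.96, under 2-fold, without mTEClo EEDcKO replicate 1 or 2 or mTEChi EEDcKO replicate 3. The EED by fraction interaction called none of the 8 genes by edgeR (1.58% of all genes, 0.614% higher and 0.97% lower), by DESeq2 also none, and the unadjusted p of edgeR was under 0.05 for Anxa5 alone, whose 95% interval began at 0.001.

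In neonatal AireEEDdKO mice Ccl20 rose and Tnfaip2 fell in mTEChi against mTEClo, where 10.4% of all genes were called higher, 10.6% lower and 21.0% in either direction. Tnfaip2 was at 51.2, 50.3 and 51.0 CPM in mTEChi and at 101, 148 and 132 CPM in mTEClo, without overlap, as for 49.8% of all genes. It fell by 1.32 on the log2 scale (SE 0.26, adjusted p = 0.00042). Ccl20 was at 15.9, 43.3 and 31.4 CPM in mTEChi and at 2.208, 17.4 and 3.94 CPM in mTEClo, so that the groups overlapped (log2 1.87, SE 0.58, adjusted p = 0.014). The call of Ccl20 was lost without mTEChi replicate 2 (log2 1.55, adjusted p = 0.073), mTEClo replicate 1 (1.47, adjusted p = 0.059) or mTEClo replicate 3 (1.52, adjusted p = 0.072). Samples of these groups with the same number deviated together, and with the replicate number as a block Gp2 joined the called genes at 1.39 (adjusted p = 0.03), from 1.30 (adjusted p = 0.058) without it.

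**Figure D4:**
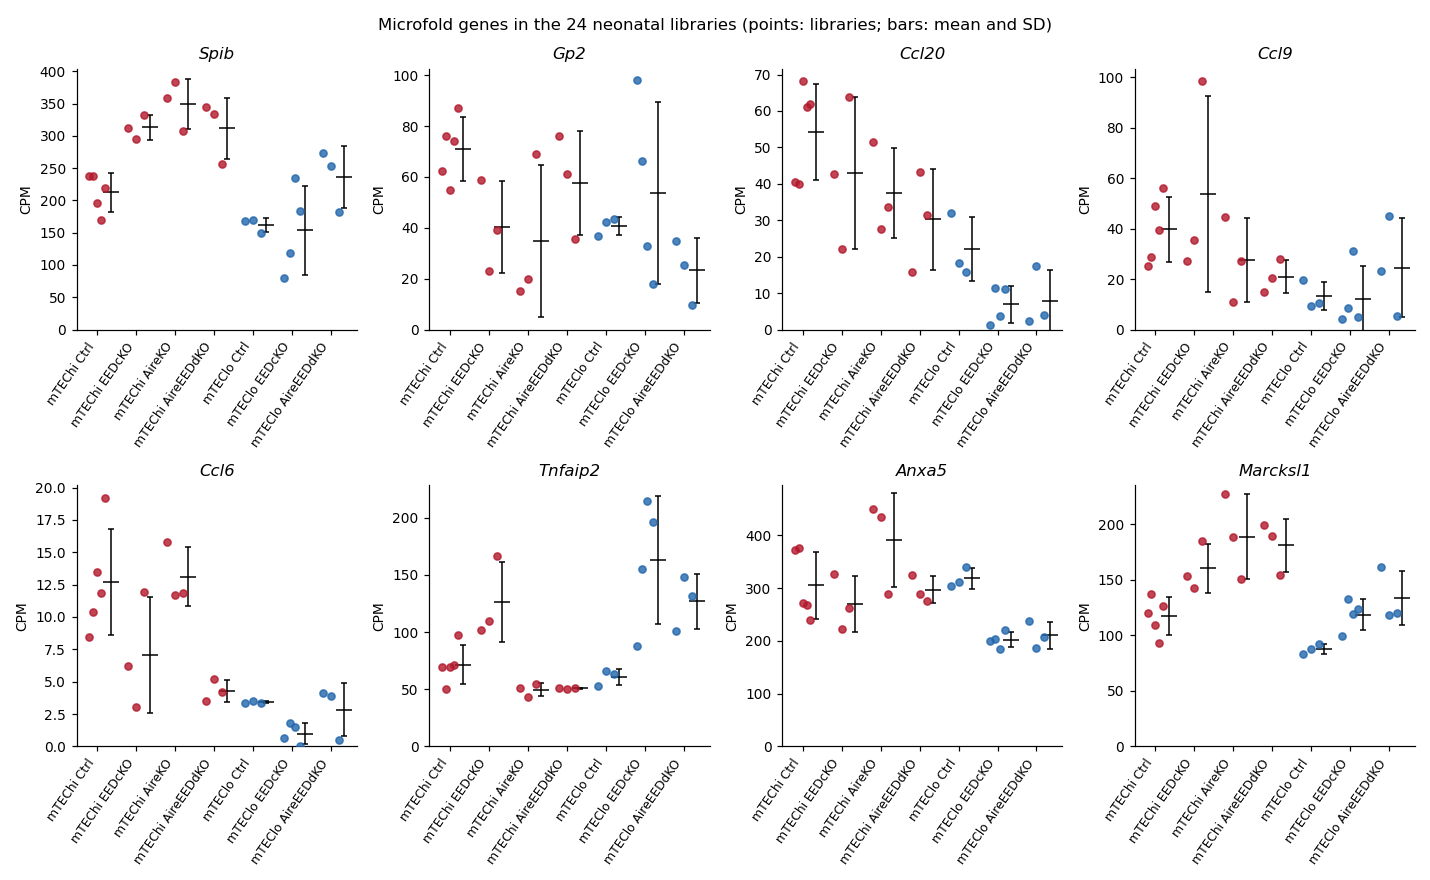
TMM-scaled CPM (y axis, linear, from 0) of each of the 8 genes in the 24 neonatal libraries, by group (x axis); points are libraries (red, mTEChi; blue, mTEClo) and bars the mean and SD, cut off at 0. Tnfaip2 lay at 87.5 to 214 CPM in mTEClo EEDcKO, above the 53.0 to 65.9 CPM of mTEClo Ctrl, and Gp2 replicates of mTEChi AireKO lay at 15.1, 19.97 and 69.2 CPM.

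In neonatal mTEClo, Tnfaip2 and Ccl20 differed between EEDcKO and Ctrl. Eed itself had a log2 fold change of -0.67 there (SE 0.22, adjusted p = 0.023), under 2-fold. Tnfaip2 was called higher, where 9.51% of all genes were, and Ccl20 lower, where 6.22% were, with 15.7% in either direction. Tnfaip2, the protrusion factor, was at 87.5, 155, 214 and 196 CPM in EEDcKO and at 53.0, 65.9 and 63.6 CPM in Ctrl. It rose by 1.43 on the log2 scale (SE 0.24, adjusted p = 0.00014), and the groups did not overlap, as for 36.5% of all genes. Of the 5 fibroblast markers, 4 were called higher in the same libraries, with a median log2 fold change of 2.55 and sums of 355 to 548 CPM in EEDcKO against 114 to 119 in Ctrl, and their part in the value of Tnfaip2 was not tested. Ccl20 was at 1.35, 11.5, 3.62 and 11.1 CPM in EEDcKO, below the Ctrl values of 32.1, 18.2 and 15.8 CPM. It fell by 1.71 on the log2 scale (SE 0.56, adjusted p = 0.024). The call of Ccl20 was lost without Ctrl replicate 1 (adjusted p = 0.13) or without EEDcKO replicate 1 (0.058) or 3 (0.071).

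Ccl6 had a log2 fold change of -1.77 (SE 0.68, adjusted p = 0.0502) in neonatal mTEClo EEDcKO, with each EEDcKO library below each Ctrl library. The EEDcKO libraries held 0 to 7 counts of Ccl6 and the Ctrl libraries 6 to 10. DESeq2 called it lower (-1.85, adjusted p = 0.019), as did 3 other scalings or filters and the fits without EEDcKO replicate 2 or 3. Anxa5 was lower in every EEDcKO library (186 to 221 CPM) than in any Ctrl library (304 to 340 CPM), with a log2 fold change of -0.65 (SE 0.16, adjusted p = 0.0044) under 2-fold. Marcksl1 had 0.44 (SE 0.16, adjusted p = 0.038), also without overlap. Spib, Gp2 and Ccl9 overlapped between the groups. Mean age differed as well, and with age in days as a term Tnfaip2 and Ccl20 were again the called genes.

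In neonatal mTEChi, EEDcKO against Ctrl gave no call among the 8 genes by edgeR or by DESeq2, where 13.9% of all genes were called, 8.48% higher and 5.40% lower. Spib, Tnfaip2 and Marcksl1 had an unadjusted p under 0.05, all with the EEDcKO libraries above every Ctrl library, as the groups of 31.2% of all genes did not overlap. The share of all genes with such an unadjusted p was not computed. Tnfaip2 was at 102, 110 and 166 CPM in EEDcKO and at 69.8, 50.2, 69.9, 70.8 and 97.2 CPM in Ctrl, with a log2 fold change of 0.81 (SE 0.22, adjusted p = 0.0074). Spib was at 313, 295 and 333 CPM in EEDcKO and at 238, 238, 196, 170 and 219 CPM in Ctrl (log2 0.57, SE 0.22, adjusted p = 0.0477). Marcksl1 had 0.45 (SE 0.15, adjusted p = 0.021). Without EEDcKO replicate 3, Ccl6 was called lower at -1.61 (adjusted p = 0.037).

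The loss of Aire in neonatal mTEChi gave no call among the 8 genes by edgeR or by DESeq2 either, where 16.4% of all genes were called, 3.56% higher and 12.8% lower. Gp2 was at 15.1, 19.97 and 69.2 CPM in AireKO and at 54.7 to 87.1 CPM in Ctrl, with a log2 fold change of -0.92 (SE 0.48, adjusted p = 0.16). Replicates 1 and 2 lay below every Ctrl library and replicate 3 among them. Without AireKO replicate 3 the log2 fold change of Gp2 was -2.001 (adjusted p = 0.019). Spib was at 359, 384 and 308 CPM in AireKO, above every Ctrl library, with a log2 fold change of 0.72 (SE 0.22, adjusted p = 0.016). Marcksl1 was at 227.5, 188.7 and 150.3 CPM in AireKO and at 120.4, 137.5, 109, 93.5 and 127 CPM in Ctrl, with a log2 fold change of 0.68 (SE 0.15, adjusted p = 0.0016). Spib and Marcksl1 were 2 genes without overlap, as were 34.2% of all genes. Unadjusted p was under 0.05 for 4 of the 8 genes, Spib, Marcksl1, Tnfaip2 and Anxa5, and the share of all genes at that level was not computed. The log2 fold changes of Ccl20 (-0.56), Ccl9 (-0.56) and Ccl6 (0.00) had intervals of -1.55 to 0.43, -1.79 to 0.67 and -0.94 to 0.95. A 2-fold fall lay within the intervals of Ccl20 and Ccl9 and outside that of Ccl6.

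In the absence of EED, Tnfaip2 was lower without Aire in mTEChi, at 102, 110 and 166 CPM in EEDcKO and 51.2, 50.3 and 51.0 CPM in AireEEDdKO. It was the one gene of the 8 called lower, where 8.36% of all genes were, 4.99% higher and 13.3% in either direction, with no overlap, as for 32.4% of all genes (log2 -1.31, SE 0.26, adjusted p = 0.0011). In mTEClo, AireEEDdKO against EEDcKO gave no call by edgeR or by DESeq2, where 5.30% of all genes were called, 3.45% higher and 1.85% lower, and the groups of none of the 8 were without overlap (15.2% of all genes), with an unadjusted p under 0.05 for Spib, Gp2 and Ccl6. Without EEDcKO replicate 3, Ccl9 was called higher at 2.08 (adjusted p = 0.032), and without AireEEDdKO replicate 3, Ccl6 at 2.04 (adjusted p = 0.029).

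In mTEChi of AireEEDdKO against AireKO mice no gene of the 8 was called by edgeR, where 9.47% of all genes were, 6.69% higher and 2.78% lower, and Ccl6 and Anxa5 had an unadjusted p under 0.05. Ccl6 was at 3.53, 5.20 and 4.17 CPM in AireEEDdKO and at 15.8, 11.7 and 11.9 CPM in AireKO, without overlap, as for 34.7% of all genes (log2 -1.59, SE 0.57, adjusted p = 0.057). DESeq2 called Ccl6 lower (-1.61, adjusted p = 0.033), as did the fit of these groups alone (-1.57, adjusted p = 0.0062). Same-numbered samples deviated together here as well, and the replicate block called none. The Aire by EED interaction called none of the 8 genes by edgeR or by DESeq2 (1.25% of all genes, 0.807% higher and 0.446% lower), and Spib, Tnfaip2 and Marcksl1 had an unadjusted p under 0.05.

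Ordered by mean level in adults, Spib, Anxa5 and Ccl6 had no pair of neighbouring groups apart. For Ccl20 and Ccl9 the order was mTEChi WT, mTEClo WT, mTEChi AireKO and mTEClo AireKO, where the last step alone was free of overlap. That step was free of overlap for 47.2% of all genes. For Gp2 the order was mTEClo WT, mTEClo AireKO, mTEChi WT and mTEChi AireKO, where mTEClo AireKO and mTEChi WT overlapped. Its first step was free of overlap for 11.7% of all genes and its last for 38.0%. Tnfaip2 was apart only between mTEClo WT and mTEClo AireKO, as were 11.7% of all genes, and Marcksl1 only between mTEChi WT and mTEClo AireKO. In neonates, neighbouring groups overlapped throughout for Spib, Gp2, Ccl20, Ccl9 and Anxa5. Ccl6 was apart between mTEChi AireEEDdKO (4.30 CPM) and mTEClo Ctrl (3.42 CPM), but barely. The nearest libraries were at 3.53 CPM (6 counts) and 3.51 CPM (10 counts). Marcksl1 was apart between mTEChi Ctrl (117.4 CPM) and mTEClo Ctrl (87.4 CPM), as were 45.3% of all genes. Tnfaip2 was apart between mTEChi EEDcKO (125.9 CPM) and mTEChi Ctrl (71.6 CPM), as were 31.2% of all genes. It was also apart between mTEClo Ctrl (60.9 CPM) and mTEChi AireEEDdKO (50.8 CPM). For the steps that cross both fraction and genotype, no share of all genes was computed.

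Without Aire, the receptor genes of the chemokines went in different directions in adults, with Ccr6 higher where Ccl20 was lower and Ccr1 lower together with Ccl9. Ccr6, the receptor of CCL20, rose in adult mTEChi from 36.2 ± 1.58 CPM in WT (SD, n = 7) to 79.3 ± 7.64 in AireKO (SD, n = 4; log2 1.13, SE 0.19, adjusted p = 1.5e-05). It also rose in adult mTEClo, from 1.16 ± 1.13 CPM (SD, n = 8) to 6.90 ± 4.13 CPM (SD, n = 4; adjusted p = 6.4e-05). Ccr1, a receptor of CCL9, had log2 fold changes of -2.18 in mTEChi AireKO (adjusted p = 0.0015) and -3.43 in mTEClo AireKO (adjusted p = 1.0e-04), from group means of 4.17 and 5.48 CPM, and its AireKO libraries held 0 to 5 counts. In neonatal mTEClo, Ccr6 was 9.21 CPM in Ctrl and 2.71 CPM in EEDcKO, lower by a log2 fold change of -1.76 (SE 0.51, adjusted p = 0.011). The summed level of 5 B cell markers moved with Ccr6 in all 3 comparisons, with overlap in the last. They summed to 107 to 150 CPM in mTEChi AireKO and 60.0 to 89.4 in WT, to 23.8 to 36.9 CPM in adult mTEClo AireKO and 12.8 to 19.5 in WT, and to 9.09 to 26.0 CPM in neonatal mTEClo EEDcKO and 21.4 to 47.7 in Ctrl. Ccr1 moved with the macrophage and monocyte markers that were called lower in adult mTEChi, given above, and against Lyz2, which was higher. Whether these marker transcripts came from blood cells or from mTECs was not tested, nor was the part of blood cells in the receptor values.

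The upstream genes of the microfold program were counted as a list of 11: Tnfrsf11a and Tnfrsf11b, which encode RANK and its decoy receptor, Traf6, Map3k14, Nfkb1, Nfkb2, Rela, Relb, Sox8, Esrrg and Atoh8. In adult mTEChi AireKO, 1 of the 11 rose, the kinase gene Map3k14 (log2 1.05, adjusted p = 3.4e-09), and none fell, where 5.63% of all genes were called higher and 17.8% lower. Without the 2-fold limit, 9 of the 11 genes had an adjusted p under 0.05, and the share of all genes that did was not computed. The median log2 fold change of the list was 0.48, beside -0.01 over all genes. Its sums were 3110 to 3640 CPM in AireKO against 2270 to 2530 in WT. In adult mTEClo AireKO, Sox8 was the one gene of the list that was called, and it fell by 1.03 (adjusted p = 0.00062), where 3.88% of all genes were called lower. Sox8 was also called in the Aire by fraction interaction (1.66, adjusted p = 6.5e-05), where 2.7% of all genes were called higher. In the 2 comparisons of EEDcKO with Ctrl, Sox8 rose by 1.85 in mTEChi (adjusted p = 0.00019) and by 1.66 in mTEClo (adjusted p = 0.0066), and Atoh8 rose by 2.13 (adjusted p = 4.9e-05) and 1.43 (adjusted p = 0.0045). These 2 genes were the ones of the list that rose, and Tnfrsf11b fell in mTEClo EEDcKO by 1.48 (adjusted p = 0.0025). Of all genes, 8.48% were called higher and 5.40% lower in mTEChi EEDcKO, and 9.51% and 6.22% in mTEClo EEDcKO. In neonatal mTEChi AireKO none of the 11 was called by edgeR, where 16.4% of all genes were called. Without the 2-fold limit, 5 of the 11 genes had an adjusted p under 0.05, and the share of all genes was not computed there either. The median log2 fold change was 0.52, beside 0.03 over all genes, and the list summed to 3030 to 3810 CPM in AireKO against 2040 to 2440 in Ctrl.

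Between the fractions, 3 of the 11 upstream genes were higher in mTEChi and 1 lower in adult WT mice, where 23.7% of all genes were called higher and 12.4% lower, a share near that of the list. In adult AireKO mice 8 were higher and 1 lower, where 18.5% and 16.7% of all genes were. In both, Atoh8 was the gene that was lower, with log2 fold changes of -2.24 (adjusted p = 6.8e-10) and -2.61 (adjusted p = 2.2e-08). In neonates the counts were 3 higher and 0 lower in Ctrl (13.8% and 6.92% of all genes), 4 and 0 in EEDcKO (14.2% and 7.67%) and 3 and 1 in AireEEDdKO (10.4% and 10.6%). Traf6 was among the called genes in adult WT (log2 1.22, adjusted p = 6.5e-16), in adult AireKO (1.51, adjusted p = 1.6e-14), in neonatal EEDcKO (1.20, adjusted p = 6.9e-06) and in neonatal AireEEDdKO (1.56, adjusted p = 1.0e-06).

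A second list held 12 other genes known from gut microfold cells, of which 11 were tested. Of these, 1 rose and 1 fell in each fraction of adult AireKO mice, where 5.63% of all genes were called higher and 17.8% lower in mTEChi and 4.42% and 3.88% in mTEClo. Nrg1, a growth factor gene, rose in both (log2 1.24, adjusted p = 7.2e-11 in mTEChi and 1.18, adjusted p = 7.8e-09 in mTEClo). Umod fell by 2.94 in mTEChi (adjusted p = 0.00027), and Pglyrp1, which encodes a peptidoglycan recognition protein, fell by 1.61 in mTEClo (adjusted p = 2.9e-07). Nrg1 was also the one gene of the list that was called in neonatal mTEChi AireKO (1.53, adjusted p = 0.00045). Of all genes, 3.56% were called higher there and 12.8% lower. In EEDcKO against Ctrl, 1 of the 11 fell in mTEChi, the neuroendocrine secretory gene Scg5 (by 1.34, adjusted p = 0.0082), where 5.40% of all genes were called lower. In mTEClo, 2 fell, Umod (by 1.71, adjusted p = 0.025) and Scg5 (by 1.05, adjusted p = 0.035), where 6.22% of all genes were called lower.

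Across libraries, Ccl20 and Ccl9 had Pearson r = 0.921 over the 23 adult and 0.646 over the 24 neonatal libraries, on log2 CPM. After the group means were removed, r was 0.556 and 0.426. Ccl9 and Ccl6, the neighbours on chromosome 11, had r = 0.717 and 0.732 after the group means were removed. Spib and Marcksl1 had 0.861 and 0.524, and Spib and Gp2 had -0.520 in adults. The points share the groups and the scaling of their table, and these values are descriptions.

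**Figure D5:**
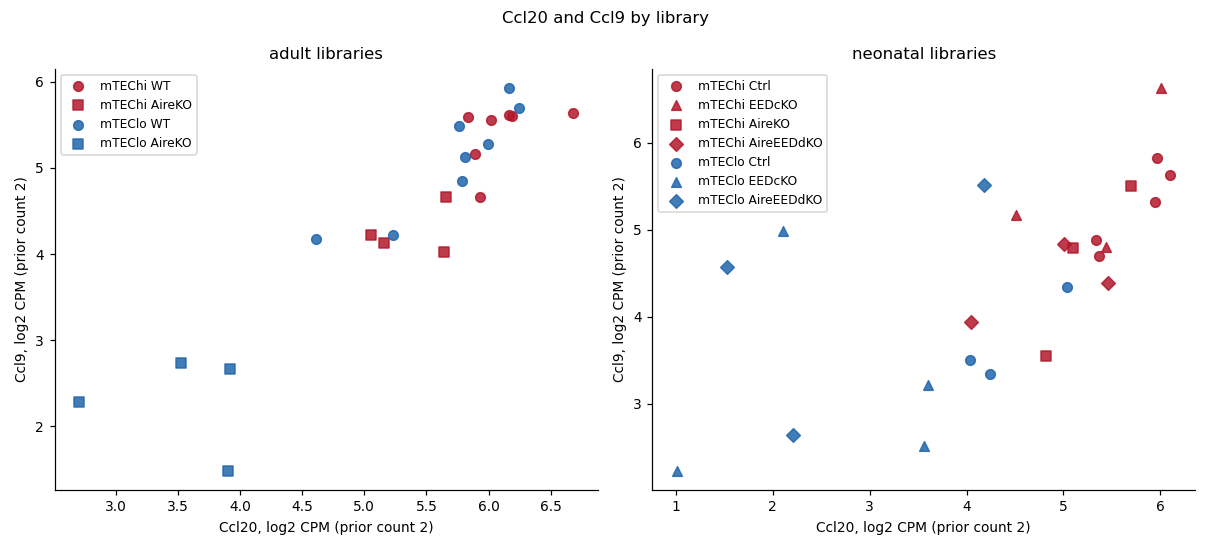
Log2 CPM (prior count 2) of Ccl20 (x axis) and Ccl9 (y axis) in each of the 23 adult and 24 neonatal libraries; colour gives the fraction (red, mTEChi; blue, mTEClo) and the marker the genotype. The 4 adult mTEClo AireKO libraries lie at the lower left, and r is 0.921 in adults and 0.646 in neonates.

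The genes most like each of the 8 were ranked by the smaller of the 2 values of r, over 18546 genes tested in both tables. For Spib they were 5031439G07Rik (0.877), Sgsm1 (0.854) and Extl1 (0.852), and for Gp2, with lower values, Isx (0.627), Plch1 (0.598) and Lrrc19 (0.589). Ccl20 was most like Abca13 (0.861), Cfap61 (0.817) and Dnah6 (0.810), the last a dynein heavy chain gene of motile cilia. Ccl9 was most like Myo7b (0.782), a myosin gene of the brush border, Pglyrp1 (0.768) and Neurl3 (0.762). For Ccl6 they were Herc1 (0.721), Dmkn (0.707) and Tspan8 (0.702), and for Tnfaip2 the cytokine gene Lif (0.725), Psd4 (0.723) and Lhpp (0.715). Anxa5 was most like the broadly expressed genes Hsp90ab1 (0.929), Eef1a1 (0.890) and B2m (0.884), and Marcksl1 most like Arhgdia (0.934), Surf4 (0.927) and Fscn1 (0.916). None of the 8 genes was among the 3 most like another.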

How the data were processed

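Per the study's methods and the labels, the authors trimmed reads with fastp 0.20.0, aligned them with STAR 2.7.3a to mm10 (GRCm38), removed low mapping qualities with SAMtools 1.9 and duplicates with Picard 2.21.1, and deposited raw counts per Ensembl gene from HTSeq 0.11.2 without strand; the annotation release is not given in the sources used here. Tnfaip2 shares 314 exon bases (6.3%) with the antisense gene Gm40578, whose reads cannot be told apart. Normalized tables were not used. Counts depend on depth, and CPM rests on sums over the genes kept.

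Symbols came from GENCODE vM21 (GRCm38). Each table was fitted over all its groups with edgeR 4.0.16 (R 4.3.3): filterByExpr, TMM, quasi-likelihood test, prior count 0.125, Benjamini-Hochberg over all tested genes. A call needed an adjusted p under 0.05 and at least 2-fold. No share of all genes was computed for an unadjusted p under 0.05, or for an adjusted p under 0.05 without the 2-fold limit. SE is the log2 fold change divided by the square root of F, and intervals are 95%. Scripts were tested on simulated data. DESeq2 1.42.0, other scalings, filters, sample sets, replicate blocks, library kind, sex and age terms were alternatives, with the age term in neonates alone. The 8 genes and the lists were chosen with earlier results of these data known. The text names the 8 genes everywhere, at most 3 called genes of smallest p per list and comparison, and the 3 genes most like each; Traf6, Sox8 and Atoh8 were followed across comparisons after their values were seen.

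No source states that replicates came from separate animals throughout, so p-values measure the spread between these samples. No libraries were copies of each other: within-group pairs differed by 1.23 to 14.0 chi-square units per gene, where 1 is sampling noise. This measure cannot exclude libraries made from the same RNA or animal. Same-numbered samples deviated together in 3 comparisons: adult AireKO mTEChi against mTEClo (r 0.139 to 0.222), neonatal AireEEDdKO mTEChi against mTEClo (0.291 to 0.416) and neonatal mTEChi AireEEDdKO against AireKO (0.108 to 0.213), from the data alone. In the neonatal Ctrl and EEDcKO fractions, mTEClo and mTEChi samples that share age and sex bear different numbers. Pairing by these labels was not tested, and the fits took those samples as unpaired.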

Additional observations from a re-analysis of the deposited data

Results flagged for a closer look

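The difference in the effect of Aire loss between adult mTEChi and mTEClo passed the interaction test for Gp2 (-1.23 on the log2 scale), Ccl20 (1.58), Ccl9 (1.95) and Tnfaip2 (1.23). With the replicate number as a block, under which these AireKO samples pair, Gp2 was at -1.29 (adjusted p = 0.068). That fit held only the libraries whose number was found in every group. For Gp2 the fall was larger in mTEChi, and for Ccl20 and Ccl9 it was larger in mTEClo. Tnfaip2 was higher in AireKO than in WT by 0.34 in mTEChi and lower by 0.89 in mTEClo, both under 2-fold. The mTEChi AireKO libraries were all without mitochondrial counts, against 2 of the 4 mTEClo AireKO libraries.

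Single libraries lay far from the others of their group in 3 of the 48 gene and group sets of 4 to 10 libraries, where chance gives about 5%. Ccl6 was at 20.1 CPM in adult mTEChi AireKO replicate 4, with the next library at 6.96. Ccl20 was at 101.6 CPM in adult mTEChi WT replicate 1, with the next at 72.1. Ccl9 was at 31.1 CPM in neonatal mTEClo EEDcKO replicate 3, with the next at 8.62.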

How the results depend on the processing

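Of 1066 repeats of 59 member changes, 1004 kept their direction and side of the call, 26 lost the call, 35 gained it and 1 reversed. The reversal was Ccl6 in adult mTEChi AireKO, at 0.15 with a term for the kind of library, and its cause was not tested. Of 294 repeats of the counts of called members, 266 lay within 1.5 times. Without the 2-fold limit the counts rose to 4 (adult mTEChi AireKO against WT), 4 (adult WT fractions), 2 (neonatal mTEChi AireKO), 3 (neonatal mTEChi EEDcKO), 4 (neonatal mTEClo EEDcKO) and 4 (neonatal AireEEDdKO fractions). More of all genes pass without that limit as well, and their share was not computed, so these counts cannot be read as an excess. In male libraries adult mTEClo AireKO had 2. AireEEDdKO against AireKO had 1 without a filter, 1 by DESeq2 and 1 with its groups alone. Without a filter AireEEDdKO against EEDcKO had 2 in mTEChi and 1 in mTEClo.

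With the replicate number as a block, neonatal mTEClo AireEEDdKO against EEDcKO had 1 call in place of 0 and the neonatal Ctrl fractions 0 in place of 2, although their numbers did not pair the samples. Block fits left out libraries whose number was not shared by every group compared. These were mTEClo EEDcKO replicate 4 in the first and mTEChi Ctrl replicates 4 and 5 in the second. Ccl20 also lost its call in the Ctrl fractions without replicate 4 or 5 alone. Among adult member changes, the block moved the call of 2, Ccl6 in mTEChi AireKO at -1.11 (adjusted p = 0.038) and Gp2 in the interaction at -1.29 (adjusted p = 0.068). Both fits left out the WT libraries with numbers not found in AireKO.

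Leaving out 1 library gave 0 to 1 calls for neonatal mTEChi AireKO (1 without AireKO replicate 3), 0 to 1 for mTEChi EEDcKO (1 without EEDcKO replicate 3) and 1 to 3 for mTEClo EEDcKO (1 without replicate 1 of Ctrl or of EEDcKO). It gave 0 to 1 for mTEClo AireEEDdKO against EEDcKO (1 without replicate 3 of either). Between the fractions it gave 1 to 2 for Ctrl, 2 to 4 for EEDcKO (2 without mTEChi EEDcKO replicate 3) and 1 to 3 for AireEEDdKO (1 without mTEChi replicate 2 or mTEClo replicate 3). Depth limited the 3 chemokine genes, with as few as 0 counts of Ccl6, 4 of Ccl20 and 7 of Ccl9 in a library.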
